A study of Homo sapiens with 42 samples.

Results

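Interferon-stimulated genes and the sensors of foreign or misplaced nucleic acid were followed in 2 lung cancer cell lines over the day after a single dose of gamma radiation. The genes were 41 named symbols, looked up among the rows of the expression table that carry 1 gene symbol. Of these, 39 were found, each with 1 row, among 18404 genes tested. STAT2 and GBP1 are not analysed here.

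The cells were H460, a large-cell lung carcinoma line that the study calls radiosensitive, and H1299, a non-small cell lung carcinoma line that it calls radioresistant. Both are established human lines, and cells in exponential growth received 2 Gy. For each line, 6 arrays were made from cells that the labels place before irradiation (0 h) and 3 each at 2, 4, 8, 12 and 24 h after it, 42 arrays in all, which the labels call biological replicates. The protocol names unirradiated control cells kept for the same times, but no array is labelled as unirradiated at the later times, so any change from 0 h mixes hours after the dose with hours in culture, which cannot be told apart. The 6 arrays at 0 h serve as the reference for all 5 later times of that line.

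Cells recognise viral or misplaced nucleic acid through a small set of receptors. RIG-I (RIGI) and MDA5 (IFIH1) bind RNA in the cytosol, TLR3 binds double-stranded RNA in endosomes, and cGAS (CGAS) binds cytosolic DNA and signals through STING1. These receptors lead to secretion of type I and type III interferons, which act on surface receptors and, through JAK kinases, on a transcription factor complex that contains IRF9. That complex binds the interferon-stimulated response element (ISRE) and induces many genes of antiviral function, the receptors themselves among them. DNA damage by radiation is a known setting in which this response can appear in tumour cells.

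Levels below are log2 intensities of 1 probe set per gene, and a change is the mean at a later time minus the mean of that line's 6 arrays at 0 h, on the log2 scale, ± the standard error of the fit. A change is called where its adjusted p is under 0.05 (limma, Benjamini-Hochberg over all genes tested), and "rose" and "fell" are used only of called changes. The deposited values came without detection calls. Of the 39 genes, 10 were dim, with no group mean above 5.59: DHX58, OAS2, OASL, MX1, MX2, RSAD2, BST2, IFI27, XAF1 and EPSTI1. Array medians ran from 5.97 to 6.18, but the width of the array distributions (interquartile range over all genes) differed between groups. In H460 the mean width was 3.34 at 0 h, 2.84 at 2 h, 3.35 at 4 h, and 3.64, 3.67 and 3.64 at 8, 12 and 24 h. In H1299 it was 3.58 at 0 h and between 3.53 and 3.82 later. Across the 21 arrays of H460, the correlation of a gene's level with array width had a median of 0.70 over the 39 genes (range -0.89 to 0.93), against -0.05 in H1299 (range -0.71 to 0.83). These describe arrays that share time points, and values with width in the model are given with the results.

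RefSeq promoters (250 bases before to 50 after the start, GRCh38.p14) were available for 30 of the 39 genes. They were searched for the ISRE core, which is GAAA, 2 bases of any kind and GAAA again, or on the other strand TTTC, 2 bases and TTTC. The core was present in 18 of the 30 (60.0%), against 3.65% of 27305 promoters in all. The windows below, written 5′ to 3′ on the strand of the gene, lie upstream of the start in the promoter entry and have the core in capitals. The first 5 belong to genes that rose in H460 or in both lines. The last 3 belong to genes with the same core that did not rise at 8, 12 or 24 h in either line.
IFIT1: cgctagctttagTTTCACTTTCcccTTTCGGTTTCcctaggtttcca
IFI44: gggcacactgagTTTCAGTTTCctttctct
IFI6: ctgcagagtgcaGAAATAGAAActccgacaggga
IFIH1: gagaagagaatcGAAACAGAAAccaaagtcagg
PARP14: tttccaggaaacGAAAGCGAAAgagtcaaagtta
ISG15: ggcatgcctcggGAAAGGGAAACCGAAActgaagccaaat
IFI27: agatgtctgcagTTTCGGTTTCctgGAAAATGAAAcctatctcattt
BST2: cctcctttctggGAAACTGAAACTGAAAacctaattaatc
The IFIT1 window is chr10:89392495-89392541 on the plus strand, the IFI44 window chr1:78649759-78649788 (plus) and the IFI6 window chr1:27672264-27672297 (minus). The IFIH1 window is chr2:162318685-162318717 (minus) and the PARP14 window chr3:122680798-122680831 (plus). ISG15 is at chr1:1013372-1013411 (plus), IFI27 at chr14:94110616-94110662 (plus) and BST2 at chr19:17405733-17405772 (minus). The IFI27 window lies inside the annotated span of the gene (chr14:94105894-94116690). Within these windows the core occurs in 2 separate places in IFIT1 and IFI27 and as 2 overlapping copies in ISG15 and BST2. In H460 at 24 h, 10 of the 18 genes with a core rose (median change 0.415), and 6 of the 12 without it (median change 0.322). The difference between these sets was not tested. No core was found in the windows of OAS1, PARP9, RIGI, SAMD9L and SP110, all of which rose in H460.

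Before irradiation the lines differed widely in these genes. OAS1, which makes the 2-5A messenger that activates RNase L, was 25.4-fold higher in H460 than in H1299. IFI44L and IFI44, a neighbouring pair induced by interferon, were at least 13.2-fold and 9.34-fold higher. SAMD9L, an antiviral and growth-restraining factor, was at least 4.08-fold higher. These 3 are lower bounds because in H1299 at 0 h the means of IFI44L (3.17), IFI44 (3.09), SAMD9L (3.16) and also EPSTI1 (2.89) were no higher than the mean of 16 interferon genes (3.32), a level at which a signal cannot be told from background without detection calls. H1299 in turn had 3.98-fold more CGAS, 3.90-fold more HERC5 (the ligase that attaches ISG15) and 2.48-fold more IFIH1. Of the 39 genes, 28 differed between the lines at 0 h (12 arrays), 20 higher and 8 lower in H460, against a background of 55.1% of all genes (26.0% higher and 29.1% lower). The median difference (H460 minus H1299) was 0.35, against 0.07 over all genes. The arrays of the lines did not overlap for 21 of the 39, against 35.3% of all genes.

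**Figure D1:**
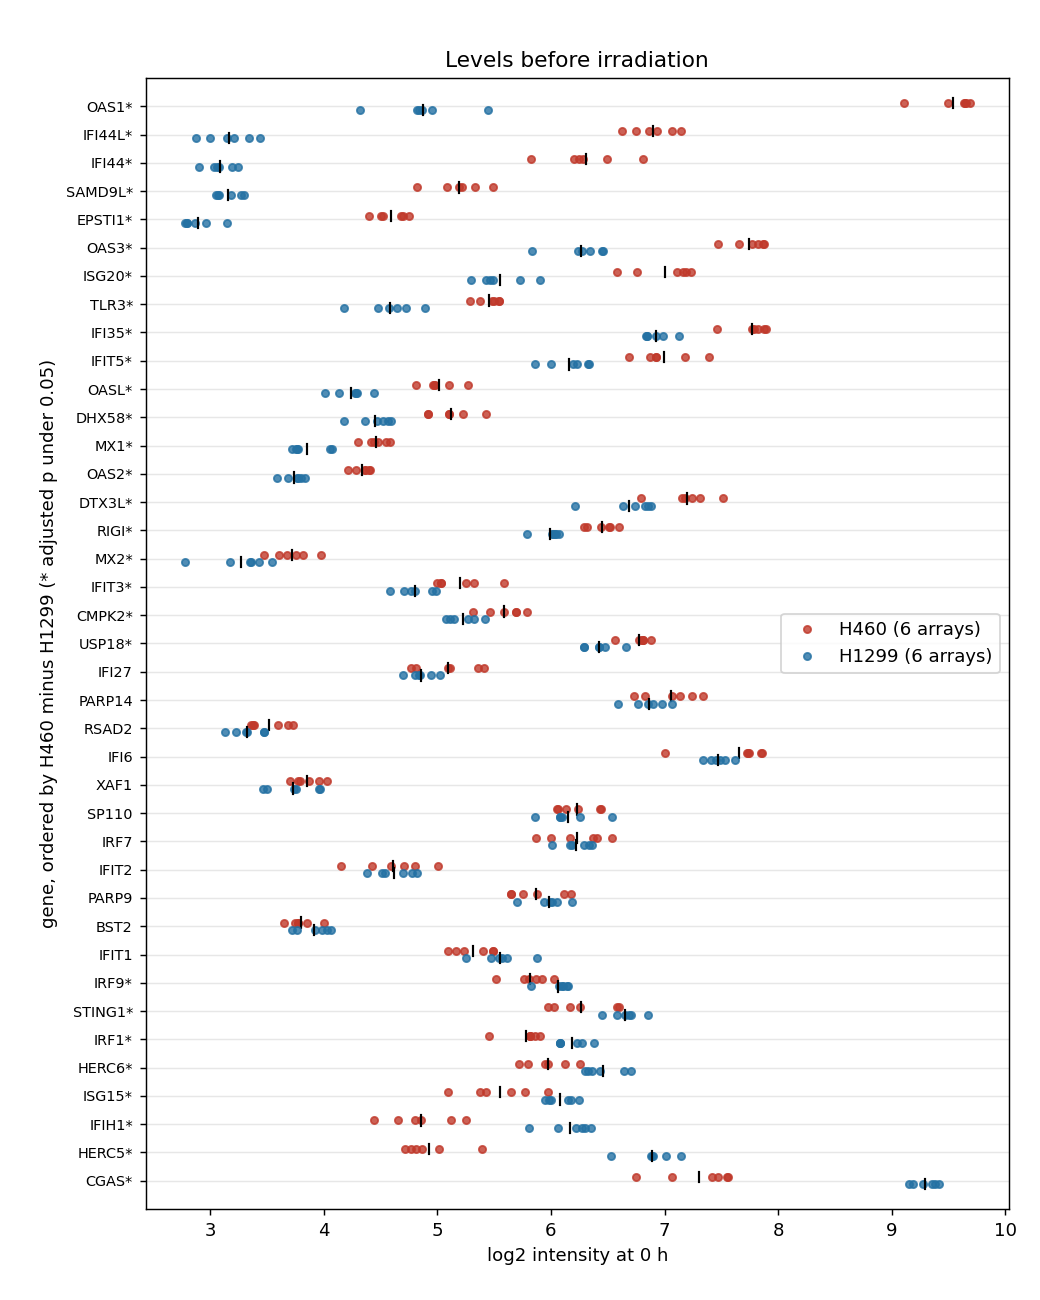
Log2 intensity at 0 h (horizontal axis) of each of the 39 genes in the 6 arrays of H460 (red) and the 6 arrays of H1299 (blue), with the group mean as a black tick and genes ordered by the difference of the means. An asterisk marks an adjusted p under 0.05. OAS1, IFI44L and IFI44 stand at the top by measured means, with H460 higher by 4.66, at least 3.73 and at least 3.22, and CGAS and HERC5 at the bottom, with differences of -1.99 and -1.96.

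OAS1 lay between 9.11 and 9.69 (median 9.64) in H460 and between 4.32 and 5.45 (median 4.85) in H1299, a difference of 4.66 ± 0.14 (adjusted p = 3.2e-16). The lowest H460 array was far above the highest of H1299. OAS3 and OAS2, its neighbours on chromosome 12, were also higher in H460, by 1.48 ± 0.11 and 0.60 ± 0.09, and so was OASL, the family member without synthetase activity, by 0.77 ± 0.10. IFI44L lay between 6.63 and 7.14 in H460 and between 2.87 and 3.44 in H1299, and IFI44 between 5.83 and 6.81 against 2.90 and 3.24. Both genes therefore occupied separate ranges in the 2 lines. SAMD9L, EPSTI1 and the exonuclease gene ISG20 were higher in H460 by 2.03 ± 0.11, 1.70 ± 0.10 and 1.46 ± 0.13, again with no overlap of arrays, the first and second of these being lower bounds. Differences from 0.87 down to 0.35 in the same direction were called for TLR3 (0.87 ± 0.11), IFI35, IFIT5, DHX58, MX1, DTX3L, RIGI, MX2, IFIT3, CMPK2 and USP18 (0.35 ± 0.09).

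CGAS lay between 6.75 and 7.56 (median 7.44) in H460 and between 9.15 and 9.42 (median 9.31) in H1299, a difference of -1.99 ± 0.12 (adjusted p = 1.32e-11). HERC5 lay between 4.72 and 5.39 against 6.53 and 7.15 (-1.96 ± 0.12). IFIH1 lay between 4.44 and 5.25 against 5.81 and 6.35 (-1.31 ± 0.13). For these 3 genes every H1299 array was above every H460 array. ISG15, the ubiquitin-like modifier, was also lower in H460 (-0.53 ± 0.13), as were HERC6 (-0.49 ± 0.11), IRF1 (-0.41 ± 0.10), STING1 (-0.39 ± 0.12) and IRF9 (-0.25 ± 0.10). The IRF9 call was lost when any of 9 of the 12 arrays was left out (adjusted p up to 0.112). The other 11 genes were not called: IRF7, IFIT1, IFIT2, IFI6, IFI27, XAF1, SP110, PARP9, PARP14, RSAD2 and BST2. Their differences lay between -0.24 for IFIT1 and 0.23 for IFI27.

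After 2 Gy, H460 had a late rise of many of these genes. At 24 h IFIT2, which binds viral RNA and restrains translation, was 2.83-fold above 0 h. IFIT1, which binds foreign 5′ ends of RNA, and PARP9, a member of the PARP family that works with the ligase DTX3L, were 2.00-fold and 1.98-fold above. TLR3, IFI44 and OAS1 were 1.94-fold, 1.91-fold and 1.76-fold above. Of the 39 genes 19 rose and 1 (IRF7) fell at 24 h, against a background of 28.7% of all genes called (16.2% higher and 12.4% lower). The median change was 0.37 for the 39 genes and -0.05 for all genes. The 24 h arrays did not overlap those at 0 h for 18 of the 39, against 26.2% of all genes. Without 24 h replicate 2, 12 genes were called, and IRF7 was not among them.

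The rise built up from 8 h, when the arrays were also wider (mean width 3.64, against 3.34 at 0 h). With array width in the model, 0 genes were called at 8 h and 3 at 12 h. At 2 h, 4 of the 39 genes were higher and 15 lower than at 0 h (background 40.4% of all genes called, 16.7% higher and 23.7% lower). The lower genes ran from SP110 (-0.33 ± 0.11) to IFIT5 (-0.95 ± 0.16), and the higher ones were XAF1, ISG15, OAS2 and MX2. The median change at 2 h was -0.20, against -0.01 over all genes. At 4 h TLR3 alone was called, upward (background 2.92%, 1.37% higher and 1.55% lower), and 0 genes were called without 4 h replicate 1 and 2 without 0 h replicate 1. At 8 h 10 rose and 0 fell (background 16.9%, 10.7% higher and 6.22% lower). That count was 4, 5 and 5 without 8 h replicate 1, 2 or 3. At 12 h 16 rose and 2 fell (background 33.5%, 16.7% higher and 16.8% lower), with a median change of 0.31 against -0.04 over all genes. The quadratic course over 24 h was called for 21 genes, 16 upward and 5 downward at their largest change (background 41.9%, 20.5% higher and 21.4% lower). Of the 16, the largest rise came at 24 h in 11, at 12 h in 4 and at 8 h in 1. Of the 5, the largest change came at 2 h in 3 and at 12 h in 2. In total 22 genes rose at 8, 12 or 24 h, and 9 rose at all 3 times: IFI44, IFI44L, IFIH1, IFIT1, OAS1, PARP9, SAMD9L, SP110 and TLR3. Over all genes, 23.5% met the first condition and 6.66% the second. The 2 h arrays were the narrowest of the line, and of the 15 genes lower at 2 h, 10 were higher at 24 h. Over all genes, 23.7% were lower at 2 h and 7.04% were lower at 2 h and higher at 24 h. With array width in the model, 0 genes were called at 2 h, against 19. Without 2 h replicate 3, 12 were called. Lists of genes at low mean levels moved up at the same time, in what is an established cell line. Of 21 leukocyte markers, 11 were called higher at 2 h and 0 lower. Their mean level was 4.54 to 4.68 against 4.08 to 4.39 at 0 h. Of 10 fibroblast markers 3 were higher and 0 lower, with list means of 4.56 to 4.65 against 4.37 to 4.54. The mean of 16 interferon genes was likewise higher at 2 h (3.555) than at 0 h (3.415), with 1 gene called higher and 0 lower. Why these low-level lists were higher on the narrowest arrays was not tested, and neither was their part in the 2 h changes.

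**Figure D2:**
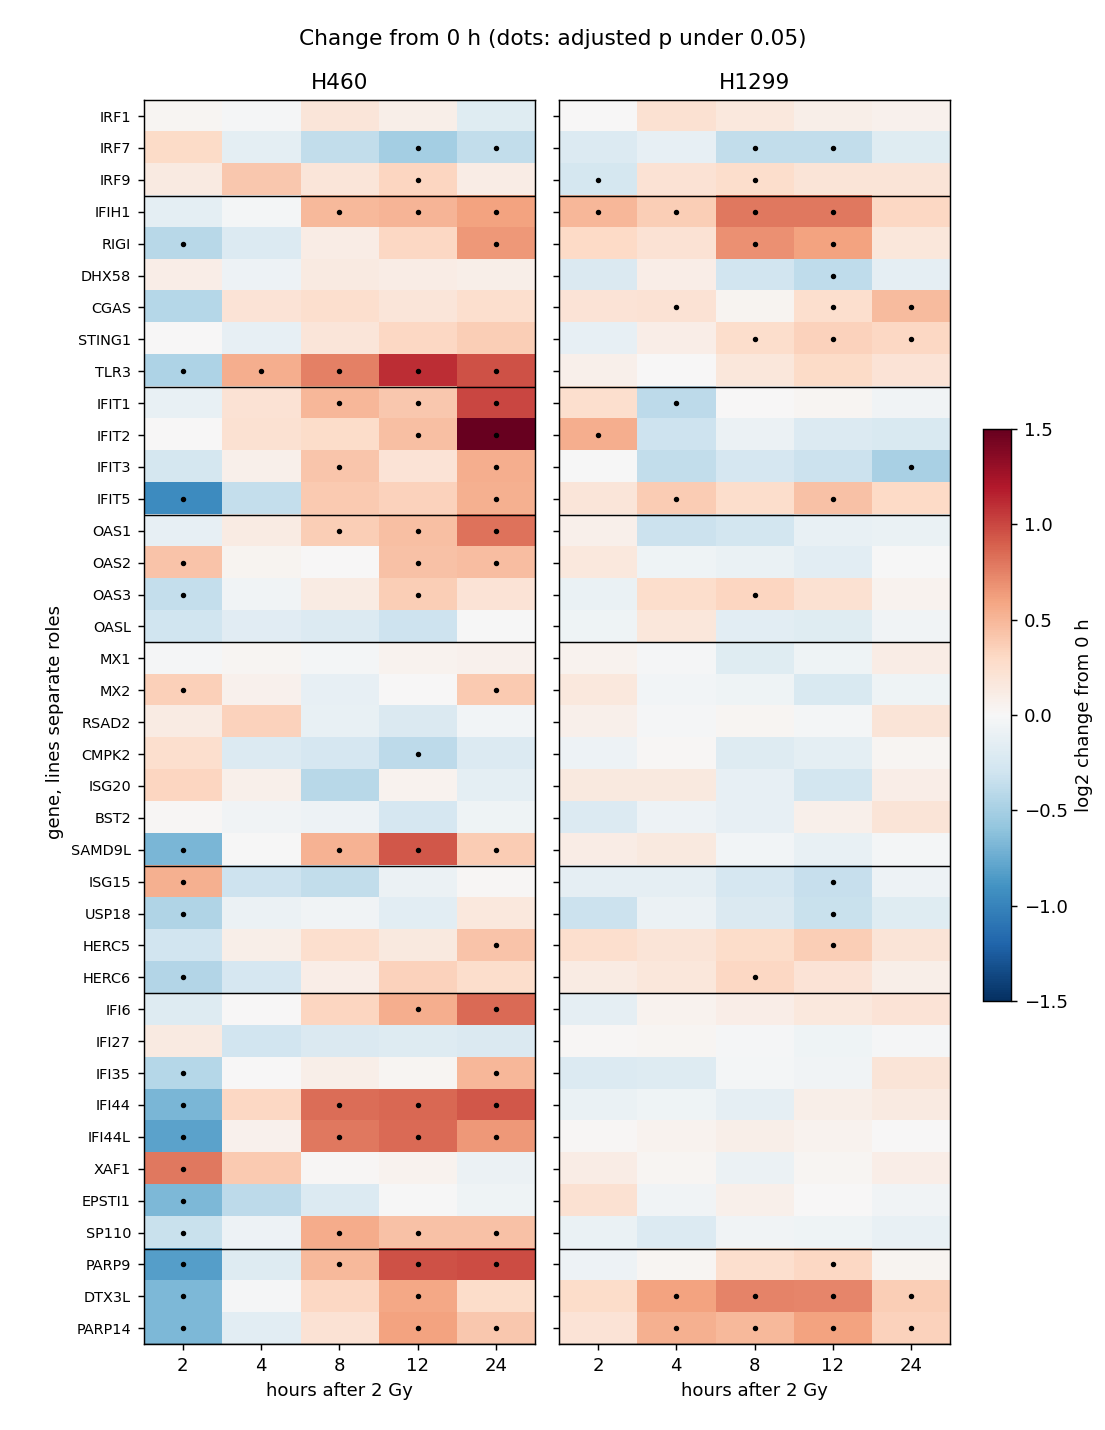
Log2 change from 0 h (colour, red higher and blue lower) of the 39 genes in rows, grouped by role with lines between the groups, at 2, 4, 8, 12 and 24 h in H460 (left) and H1299 (right). A dot marks an adjusted p under 0.05. In H460 the 19 genes that rose at 24 h lie mainly in the IFIT, OAS, IFI-named and PARP9 groups and among the sensors, and in H1299 the called rises centre on IFIH1, RIGI, DTX3L and PARP14 at 8 and 12 h.

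In H1299 the called rises were fewer late in the course. IFIH1 was 1.73-fold above 0 h at 8 h, DTX3L 1.68-fold and RIGI 1.60-fold, and PARP14, a mono-ADP-ribosyltransferase, rose by 0.60 ± 0.09 at 12 h. At 24 h 4 genes remained above 0 h by the test (CGAS, DTX3L, PARP14 and STING1), and IFIT3 was below it. At 2 h 3 genes were called, 2 of them higher (background 13.8%, 5.88% higher and 7.93% lower). At 4 h 6 were called, 5 of them higher (background 15.9%, 10.0% higher and 5.83% lower). At 8 h the count was 9, with 8 higher (background 24.6%, 15% higher and 9.54% lower), and at 12 h it was 13, with 9 higher (background 29.7%, 16.6% higher and 13.1% lower). The 5 calls at 24 h stand against a background of 11.7% (8.53% higher and 3.21% lower). As shares of the 39 genes, the counts in both directions together were close to the background of their time or below it. The higher genes alone were a smaller share than over all genes at 2 h and a larger one from 4 h on. The gap was widest at 8 and 12 h (8 and 9 of 39, against 15% and 16.6%). Whether these shares differ was not tested. Median changes at 24 h were 0.07 for the 39 genes and 0.00 for all genes. The course was called for 16 genes, 11 of them upward (background 36.5%, 19.9% higher and 16.6% lower), with the largest rise at 8 h in 4, at 12 h in 5 and at 24 h in 2. In the contrasts of single times against 0 h, 13 genes rose at least once and 20 were not called, against 22.8% and 55.2% of all genes. Some of these 20 were called for the course. With array width in the model, 10 genes were called at 2 h (8 higher), 7 at 4 h, 5 at 8 h and 8 at 12 h, and the 24 h count was again 5. The backgrounds above are for the model without width, and none is given for these counts. The 3 calls at 2 h (IFIH1, IFIT2 and IRF9) were all kept, and at 8 h 4 of the 9 (DTX3L, IFIH1, PARP14 and RIGI). IFIH1 then stood at 0.58 and RIGI at 0.59 at 8 h.

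Single arrays mattered for the H1299 counts. At 2 h the count was 5 without 0 h replicate 2 or 2 h replicate 1, and 1 without 2 h replicate 3. At 4 h it was 3 without 0 h replicate 1 or 5 or without 4 h replicate 2 or 3, and 2 without 4 h replicate 1. It was 5 at 8 h without 8 h replicate 3 and 7 at 12 h without 12 h replicate 2. At 24 h it was 3 without 0 h replicate 5 or 24 h replicate 1 or 2, and 1 without 24 h replicate 3.

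Among the transcription factors the changes were small. IRF7, the regulator that amplifies interferon production, lay between 5.87 and 6.54 (median 6.27) at 0 h in H460 and at 5.77, 5.80 and 5.59 at 12 h. It fell by 0.50 ± 0.13 at 12 h (adjusted p = 0.0054), and all 12 h arrays were below all 0 h arrays. Its fall at 24 h (-0.37 ± 0.13, adjusted p = 0.037) was lost without any of 5 arrays (adjusted p up to 0.2). In H1299 IRF7 fell by 0.37 ± 0.10 at 8 h and by 0.36 ± 0.10 at 12 h. These calls were lost without 8 h replicate 3 (adjusted p = 0.054) and 12 h replicate 2 (adjusted p = 0.0865). IRF9, the DNA-binding part of the interferon-induced complex, rose by 0.32 ± 0.12 at 12 h in H460 and by 0.26 ± 0.09 at 8 h in H1299, and either call was lost without any of 5 arrays (adjusted p up to 0.101 and 0.134). In H1299 it had first fallen by 0.27 ± 0.09 at 2 h (adjusted p = 0.0484), to 5.98, 5.71 and 5.70 from a 0 h range of 5.83 to 6.15, which the 2 h arrays overlapped. That fall, its largest change in this line, was lost without any of 18 arrays (adjusted p up to 0.234). IRF1 had no call in either line, with changes from -0.18 ± 0.15 to 0.23 ± 0.10.

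The courses of TLR3, RIGI and IFIH1 differed between the lines by the test of the difference given below. In H460 TLR3 lay between 5.29 and 5.55 (median 5.49) at 0 h, at 5.25, 4.93 and 4.81 at 2 h, at 6.20, 6.02 and 6.40 at 8 h, at 6.41, 6.61 and 6.65 at 12 h and at 6.34, 6.46 and 6.43 at 24 h. Every array from 4 h on was above every 0 h array. The change was 1.10 ± 0.12 at 12 h (adjusted p = 4e-07) and 0.96 ± 0.12 at 24 h (adjusted p = 1.5e-06). The 4 h rise of TLR3 (0.55 ± 0.12) was lost without 4 h replicate 1 (adjusted p = 0.0776). In H1299 TLR3 lay between 4.18 and 4.89 at 0 h and at 4.75, 4.52 and 5.09 at 24 h, and its change of 0.20 ± 0.15 was not called.

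IFIH1 rose in both lines. In H1299 it lay between 5.81 and 6.35 (median 6.24) at 0 h, at 6.74, 6.52 and 6.73 at 2 h, at 6.85, 6.87 and 7.15 at 8 h, at 6.84, 7.18 and 6.83 at 12 h and at 6.34, 6.52 and 6.58 at 24 h. Its arrays were above the 0 h range from 2 to 12 h and met it again at 24 h. The change was 0.79 ± 0.12 at 8 h (adjusted p = 2.1e-05) and 0.31 ± 0.12 at 24 h (adjusted p = 0.087). The 4 h rise (0.37 ± 0.12) was lost without 0 h replicate 1 or 4 h replicate 1 or 3 (adjusted p up to 0.22). In H460 IFIH1 lay between 4.44 and 5.25 (median 4.83) at 0 h and at 5.29, 5.48 and 5.60 at 24 h. It rose there by 0.48 ± 0.15 at 8 h, 0.51 ± 0.15 at 12 h and 0.60 ± 0.15 at 24 h (adjusted p = 0.0054). The 8 h call was lost without any of 5 arrays (adjusted p up to 0.176) and the 12 h call without 12 h replicate 3 (adjusted p = 0.0681).

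RIGI peaked at 8 h in H1299 and was highest at 24 h in H460. In H1299 its 0 h range was 5.79 to 6.07 (median 6.02), and the 8 h arrays stood at 6.60, 6.44 and 6.99 (0.68 ± 0.11, adjusted p = 9.5e-05). At 24 h they were back at 6.37, 5.96 and 6.16 (0.17 ± 0.11, adjusted p = 0.42). In H460 the 0 h range was 6.29 to 6.60 (median 6.48), and the 24 h arrays stood at 7.04, 7.25 and 7.01 (0.65 ± 0.14, adjusted p = 0.00092). DHX58 (LGP2), which modulates both RNA sensors, was called at no time point in H460. It fell by 0.38 ± 0.11 at 12 h in H1299, a call lost without 12 h replicate 3 (adjusted p = 0.0511).

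The DNA-sensing pair changed in H1299. CGAS lay between 9.15 and 9.42 at 0 h and at 9.69, 9.90 and 9.72 at 24 h, all above the 0 h arrays, and rose by 0.48 ± 0.07 (adjusted p = 7.8e-05). Its smaller rises at 4 h (0.22 ± 0.07) and 12 h (0.25 ± 0.07) were lost without any of 5 arrays (adjusted p up to 0.19) and without 12 h replicate 2 (adjusted p = 0.107). STING1 lay between 6.45 and 6.85 at 0 h and at 7.05, 6.86 and 6.99 at 24 h. It rose by 0.26 ± 0.09 at 8 h, 0.35 ± 0.09 at 12 h and 0.32 ± 0.09 at 24 h, calls lost without 10, 1 and 3 arrays (adjusted p up to 0.247, 0.0854 and 0.151). In H460 CGAS changed by 0.25 ± 0.18 at 24 h (adjusted p = 0.31) and STING1 by 0.37 ± 0.14 (adjusted p = 0.052), neither called. Neither was called at any other time point there. The H460 course, however, was called upward for 4 of the 6 sensors, which TLR3, RIGI and IFIH1 alone do not make up. At 12 and 24 h the difference between the lines was called for neither CGAS nor STING1.

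All 4 IFIT genes, a cluster on chromosome 10, rose in H460 at 24 h. IFIT2 lay between 4.15 and 5.01 (median 4.65) at 0 h, at 4.87, 5.19 and 5.14 at 12 h and at 5.98, 6.25 and 6.11 at 24 h. The 24 h arrays were all well above the 0 h range, whereas those at 12 h overlapped it. The change was 0.45 ± 0.14 at 12 h and 1.5 ± 0.14 at 24 h (adjusted p = 2.6e-08). The 12 h call was lost without 12 h replicate 2 or 3 (adjusted p up to 0.0883). IFIT1 lay between 5.10 and 5.49 (median 5.32) at 0 h, at 5.82, 5.88 and 5.74 at 8 h and at 6.37, 6.35 and 6.21 at 24 h. It rose by 0.50 ± 0.11, 0.41 ± 0.11 and 1.0 ± 0.11 at 8, 12 and 24 h (adjusted p = 2.2e-07 at 24 h). IFIT3, which stabilises IFIT1, lay between 5.00 and 5.58 at 0 h and at 5.64, 5.93 and 5.67 at 24 h, and rose by 0.54 ± 0.14. IFIT5 lay between 6.69 and 7.39 at 0 h, fell to 6.42, 6.19 and 5.54 at 2 h (-0.95 ± 0.16) and rose by 0.54 ± 0.16 at 24 h. Without 24 h replicate 2 the 24 h calls of IFIT3 (adjusted p = 0.0658) and IFIT5 (adjusted p = 0.0819) were lost.

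In H1299 no gene of this cluster was called higher at 24 h. IFIT2 rose early, from a 0 h range of 4.38 to 4.82 (median 4.62) to 5.12, 5.07 and 5.31 at 2 h (0.54 ± 0.13, adjusted p = 0.0057). This early call was lost without 2 h replicate 3 (adjusted p = 0.0584). Its 24 h arrays were at 4.45, 4.50 and 4.24, a change of -0.22 ± 0.13 that was not called. IFIT1 was at 5.38, 5.54 and 5.59 at 24 h, within its 0 h range of 5.25 to 5.87. Its fall at 4 h (-0.39 ± 0.13) was lost without any of 6 arrays (adjusted p up to 0.193). IFIT3 went from a 0 h range of 4.58 to 4.99 (median 4.79) to 4.54, 4.15 and 4.26 at 24 h, all below it, and fell by 0.48 ± 0.13 (adjusted p = 0.014). That fall was lost without 24 h replicate 2 or 3 (adjusted p up to 0.106). IFIT5 rose by 0.38 ± 0.13 at 4 h and 0.44 ± 0.13 at 12 h, lost without any of 6 arrays at 4 h (adjusted p up to 0.167) and without 12 h replicate 2 (adjusted p = 0.145).

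**Figure D3:**
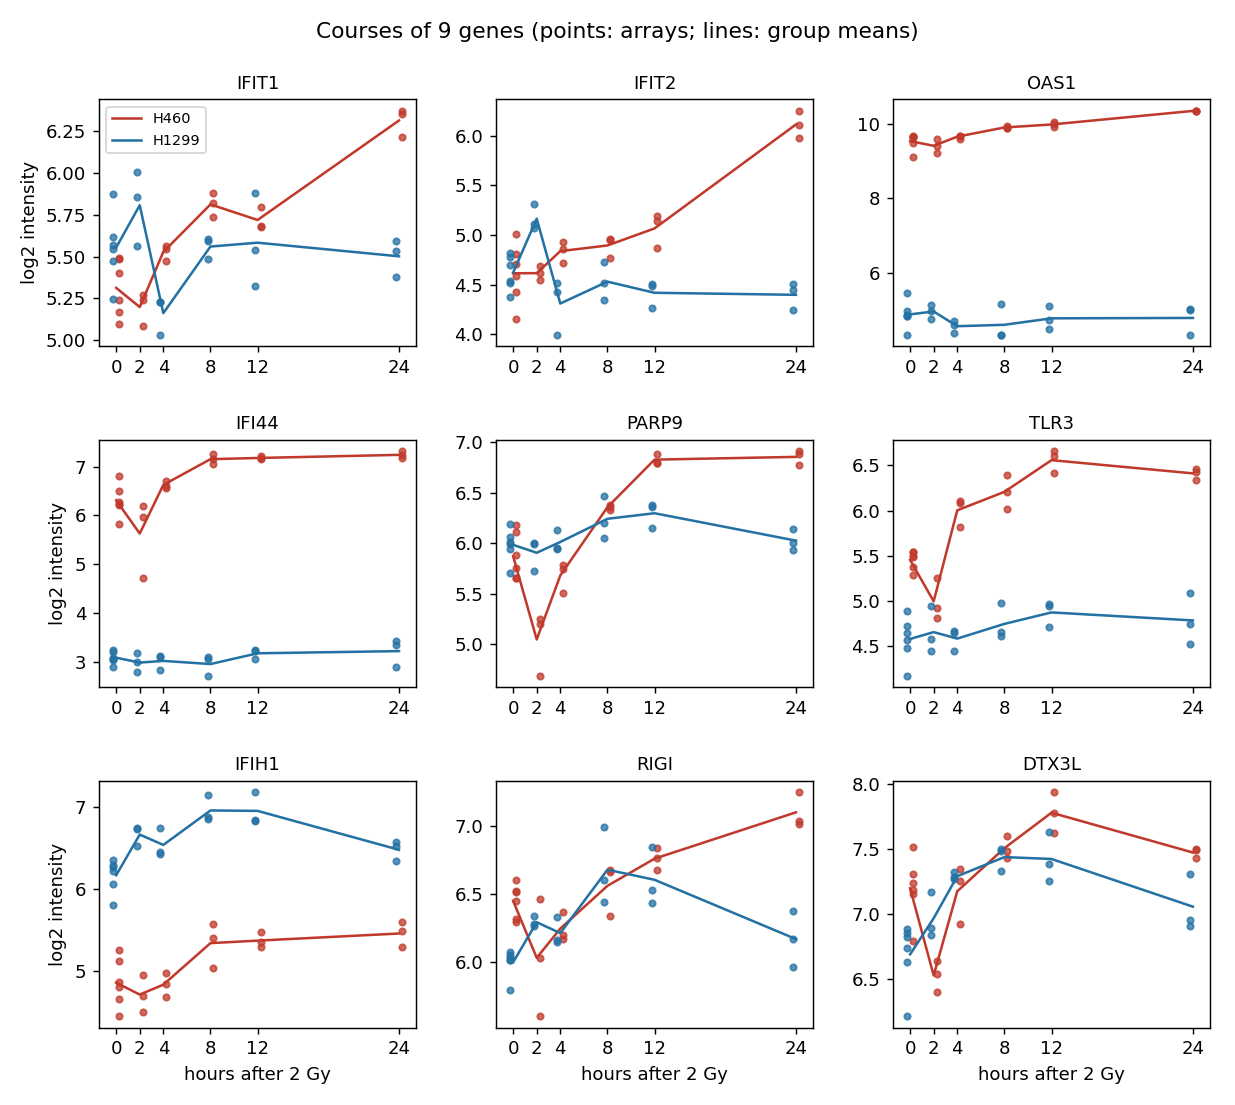
Log2 intensity (vertical axis, separate scale in each panel) against hours after 2 Gy for 9 genes, with H460 in red and H1299 in blue. Points are arrays (6 at 0 h, 3 at each later time) and lines join group means. In H460 the means of IFIT1 and IFIT2 are highest at 24 h and those of TLR3 and PARP9 are near their height by 12 h, and IFIH1, RIGI and DTX3L peak at 8 to 12 h in H1299.

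Within the OAS family, OAS1 rose further in the line where it was already high. In H460 it lay between 9.11 and 9.69 at 0 h, at 9.90, 9.88 and 9.93 at 8 h, at 10.04, 9.99 and 9.93 at 12 h and at 10.35, 10.35 and 10.36 at 24 h. All arrays from 8 h on were above the 0 h range, and the change at 24 h was 0.81 ± 0.10 (adjusted p = 2.2e-06). The 8 h call (0.37 ± 0.10) was lost without any of the 3 arrays at 8 h (adjusted p up to 0.0741). In H1299 OAS1 stood at 4.99, 4.32 and 5.01 at 24 h, within its 0 h range (-0.10 ± 0.20, adjusted p = 0.85). OAS2, a dim probe set, lay between 4.21 and 4.41 at 0 h in H460 and at 4.88, 4.64 and 4.90 at 24 h (0.47 ± 0.11, adjusted p = 0.0037). It also rose at 2 h (0.43 ± 0.11) and at 12 h (0.44 ± 0.11), the latter lost without 12 h replicate 2 (adjusted p = 0.0555). OAS3 fell by 0.35 ± 0.10 at 2 h and rose by 0.37 ± 0.10 at 12 h in H460. In H1299 it rose by 0.33 ± 0.11 at 8 h, lost without any of 5 arrays (adjusted p up to 0.133). OASL had no call in either line.

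Most of the MX genes and other antiviral effectors had no call. MX1, the GTPase that blocks influenza virus, lay between 4.30 and 4.58 at 0 h in H460 and at 4.52, 4.30 and 4.76 at 24 h (0.07 ± 0.12). In H1299 it lay between 3.72 and 4.08 and at 3.91, 3.96 and 4.02 (0.11 ± 0.12). RSAD2 (viperin) changed by -0.04 ± 0.15 and 0.19 ± 0.13 at 24 h, BST2 (tetherin) by -0.07 ± 0.12 and 0.20 ± 0.14, and ISG20 by -0.15 ± 0.15 and 0.10 ± 0.12, in H460 and H1299. None of these 4 genes was called at any time in either line, and MX1, RSAD2 and BST2 are among the 10 dim genes. CMPK2, the neighbour of RSAD2 on chromosome 2, fell by 0.39 ± 0.12 at 12 h in H460, lost without 12 h replicate 2 or 3 (adjusted p up to 0.0633).

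MX2 and SAMD9L were the effectors that rose. MX2 was higher in H460 at 2 h (0.36 ± 0.12) and 24 h (0.40 ± 0.12), where its arrays at 4.32, 4.09 and 3.94 met the 0 h range of 3.47 to 3.98. The 24 h call was lost without 24 h replicate 1 or 2 (adjusted p up to 0.133), and the 2 h call without any of 3 arrays (adjusted p up to 0.0972). SAMD9L lay between 4.82 and 5.49 (median 5.21) at 0 h in H460, at 4.54, 4.76 and 4.23 at 2 h, at 5.93, 5.58 and 5.62 at 8 h, at 6.24, 6.12 and 5.99 at 12 h and at 5.54, 5.69 and 5.48 at 24 h. It was below the 0 h range at 2 h, above it at 8 and 12 h, and overlapped its top at 24 h. The change was 0.93 ± 0.14 at 12 h (adjusted p = 4e-05). The call at 24 h (0.38 ± 0.14) was lost without any of 9 arrays (adjusted p up to 0.191) and that at 8 h (0.52 ± 0.14) without 8 h replicate 1 (adjusted p = 0.115). In H1299 SAMD9L stayed between 2.94 and 3.43 in all 21 arrays and was not called.

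The ISG15 system did not rise together. ISG15 lay between 5.10 and 5.98 (median 5.54) at 0 h in H460, at 6.27, 6.02 and 5.95 at 2 h and at 5.56, 5.35 and 5.78 at 24 h. It rose at 2 h (0.53 ± 0.16, adjusted p = 0.012), a call lost without 2 h replicate 1 (adjusted p = 0.0633), and its 24 h change was 0.01 ± 0.16. In H1299 ISG15 fell by 0.35 ± 0.10 at 12 h, to 5.74, 5.82 and 5.64 from a range of 5.94 to 6.25, lost without 12 h replicate 3 (adjusted p = 0.0551). USP18, the protease that removes ISG15 and dampens interferon signalling, fell by 0.45 ± 0.12 at 2 h in H460, lost without 2 h replicate 3 (adjusted p = 0.0738), and fell by 0.33 ± 0.12 at 12 h in H1299, lost without any of 3 arrays (adjusted p up to 0.179). HERC5 rose by 0.43 ± 0.16 at 24 h in H460, lost without any of 13 arrays (adjusted p up to 0.267), and by 0.36 ± 0.11 at 12 h in H1299, lost without 12 h replicate 2 (adjusted p = 0.092). HERC6 fell at 2 h in H460. It rose by 0.31 ± 0.10 at 8 h in H1299, lost without any of 3 arrays (adjusted p up to 0.213).

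Of the 8 IFI-named and similar genes, 5 rose in H460 at 24 h (background 16.2% higher), and 0 were called in H1299 at any time point. The H1299 course was called for 1 of them upward and for 1 downward at the largest change. IFI27, XAF1 and EPSTI1 are among the dim genes. In H1299 the 0 h levels of IFI44, IFI44L and EPSTI1 could not be told from background, as given above. IFI44 lay between 5.83 and 6.81 (median 6.26) at 0 h in H460, at 7.25, 7.16 and 7.05 at 8 h, at 7.21, 7.17 and 7.15 at 12 h and at 7.23, 7.31 and 7.18 at 24 h. It was above the 0 h range at all 3 late times, by 0.84 ± 0.21, 0.87 ± 0.21 and 0.93 ± 0.21 (adjusted p = 0.0016 at 24 h). The 8 h call was lost without 8 h replicate 1 (adjusted p = 0.0525). Its neighbour IFI44L rose by 0.80 ± 0.23, 0.85 ± 0.23 and 0.65 ± 0.23, the first lost without any array at 8 h (adjusted p up to 0.0909) and the last without any of 6 arrays (adjusted p up to 0.131). IFI6, an inhibitor of apoptosis and of viral replication, lay between 7.0 and 7.86 (median 7.74) at 0 h and at 8.49, 8.46 and 8.55 at 24 h. It rose by 0.54 ± 0.15 at 12 h and by 0.85 ± 0.15 at 24 h (adjusted p = 0.00016), with no overlap.

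SP110, a nuclear body protein, lay between 6.05 and 6.44 at 0 h in H460 and at 6.83, 6.77 and 6.75 at 8 h and 6.68, 6.67 and 6.65 at 24 h. It rose by 0.56 ± 0.11 at 8 h and 0.44 ± 0.11 at 24 h (adjusted p = 0.0057). IFI35 was at 8.25, 8.15 and 8.40 at 24 h, above its 0 h range of 7.46 to 7.90 (0.50 ± 0.13, adjusted p = 0.0059). IFI27 had no call in H460 (-0.21 ± 0.16 at 24 h). EPSTI1 fell at 2 h in H460. It was at 4.51, 5.05 and 4.04 at 24 h, on both sides of its 0 h range of 4.40 to 4.75 (-0.06 ± 0.17). XAF1, a pro-apoptotic interferon target, was higher at 2 h only, at 4.41, 4.62 and 4.91 from a range of 3.71 to 4.03 (0.79 ± 0.14), at the time when the arrays were narrowest.

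The PARP9 group was called upward in both lines at 12 h. In H460 all 3 genes had first fallen at 2 h, the time of the narrowest arrays. The H460 course was called for all 3, with the largest change upward in PARP9 and downward in DTX3L and PARP14. PARP9 and DTX3L are neighbours on chromosome 3 that share a promoter region, and their proteins form a complex. In H460 PARP9 lay between 5.65 and 6.18 (median 5.82) at 0 h, at 5.20, 5.25 and 4.69 at 2 h, at 6.36, 6.33 and 6.38 at 8 h, at 6.88, 6.80 and 6.80 at 12 h and at 6.91, 6.88 and 6.77 at 24 h. All 2 h arrays were below the 0 h range and all arrays from 8 h on above it. The change was -0.82 ± 0.13 at 2 h and 0.98 ± 0.13 at 24 h (adjusted p = 5e-06). The 8 h call (0.48 ± 0.13) was lost without any array at 8 h (adjusted p up to 0.0684). In H1299 PARP9 rose by 0.31 ± 0.11 at 12 h, lost without any of 3 arrays (adjusted p up to 0.142), and stood at 0.04 ± 0.11 at 24 h.

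DTX3L also rose in both lines. In H1299 it lay between 6.21 and 6.88 (median 6.78) at 0 h, at 7.28, 7.27 and 7.32 at 4 h, at 7.5, 7.33 and 7.49 at 8 h, at 7.39, 7.63 and 7.26 at 12 h and at 6.91, 6.96 and 7.31 at 24 h. Its arrays were above the 0 h range from 4 h on, by 0.75 ± 0.12 at 8 h (adjusted p = 7.3e-05). The 24 h rise (0.37 ± 0.12) was lost without any of 15 arrays (adjusted p up to 0.358). In H460 DTX3L rose at 12 h (0.58 ± 0.12, adjusted p = 0.0013), with arrays at 7.78, 7.94 and 7.62 against a 0 h range of 6.79 to 7.51, and its change at 24 h was 0.28 ± 0.12 (adjusted p = 0.098). PARP14 rose by 0.60 ± 0.14 at 12 h in H460 and by 0.60 ± 0.09 at 12 h in H1299, where its arrays were above the 0 h range from 4 h on. Its 24 h calls (0.40 ± 0.14 in H460 and 0.34 ± 0.09 in H1299) were lost without any of 5 arrays (adjusted p up to 0.148) and without 24 h replicate 3 (adjusted p = 0.0889).

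The difference between the lines was tested directly, as the H460 change minus the H1299 change over all 42 arrays. At 24 h it was called for 10 of the 39 genes, all of them higher in H460, against 12.4% of all genes (7.75% higher and 4.70% lower). These were IFIT2 (1.72 ± 0.19, adjusted p = 1.26e-08), IFIT1 (1.05 ± 0.16), IFIT3 (1.03 ± 0.19), PARP9 (0.94 ± 0.17), OAS1 (0.91 ± 0.24), IFI44 (0.80 ± 0.26), TLR3 (0.75 ± 0.19), IFI6 (0.65 ± 0.17), SP110 (0.55 ± 0.18) and OAS2 (0.48 ± 0.13). In H1299 the 0 h level of IFI44 could not be told from background, and OAS2 is a dim probe set. The median difference was 0.23 for the 39 genes and -0.05 for all genes. Without single arrays the calls of IFI44 (6 arrays, adjusted p up to 0.144), SP110 (10 arrays, up to 0.166), OAS2 (H460 or H1299 24 h replicate 3, up to 0.0606) and OAS1 (H1299 24 h replicate 2, 0.0675) were lost. For RIGI the difference was 0.48 ± 0.18 (adjusted p = 0.071), for IFIH1 0.29 ± 0.20 and for CGAS -0.23 ± 0.21, none of them called.

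At 12 h the difference was called for 6 genes, all higher in H460 (background 8.68%, 5.21% higher and 3.47% lower). SAMD9L led with 1.04 ± 0.17 (adjusted p = 5.85e-05), followed by TLR3 (0.81 ± 0.19), IFI44 (0.78 ± 0.26), IFIT2 (0.66 ± 0.19), PARP9 (0.64 ± 0.17) and OAS2 (0.60 ± 0.13). In H1299 the 0 h levels of SAMD9L and IFI44 could not be told from background, as given above. Without H1299 12 h replicate 1 the count was 3, with IFIT2 (adjusted p up to 0.0872 over 3 arrays) and PARP9 (adjusted p = 0.0552) among the losses, and the IFI44 call was lost without any of 34 arrays (adjusted p up to 0.125). DTX3L (-0.15 ± 0.18) and PARP14 (0.00 ± 0.17) were not shown to differ between the lines at 12 h. Over the whole course 13 genes differed (background 16.7%, 10.2% higher and 6.48% lower in H460 at the largest difference). At the largest difference 10 were higher and 3 lower in H460. All 3 lower ones had it at 2 h, where the H460 arrays were narrowest. RIGI (adjusted p = 0.00155) was among the 13, and its peak came at 8 h in H1299 and at 24 h in H460. It also fell at 2 h in H460, a change whose sign was reversed, without a call, with array width in the model. IFIH1 (adjusted p = 0.0482) differed too, a call lost without any of 26 arrays (adjusted p up to 0.138).

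**Figure D4:**
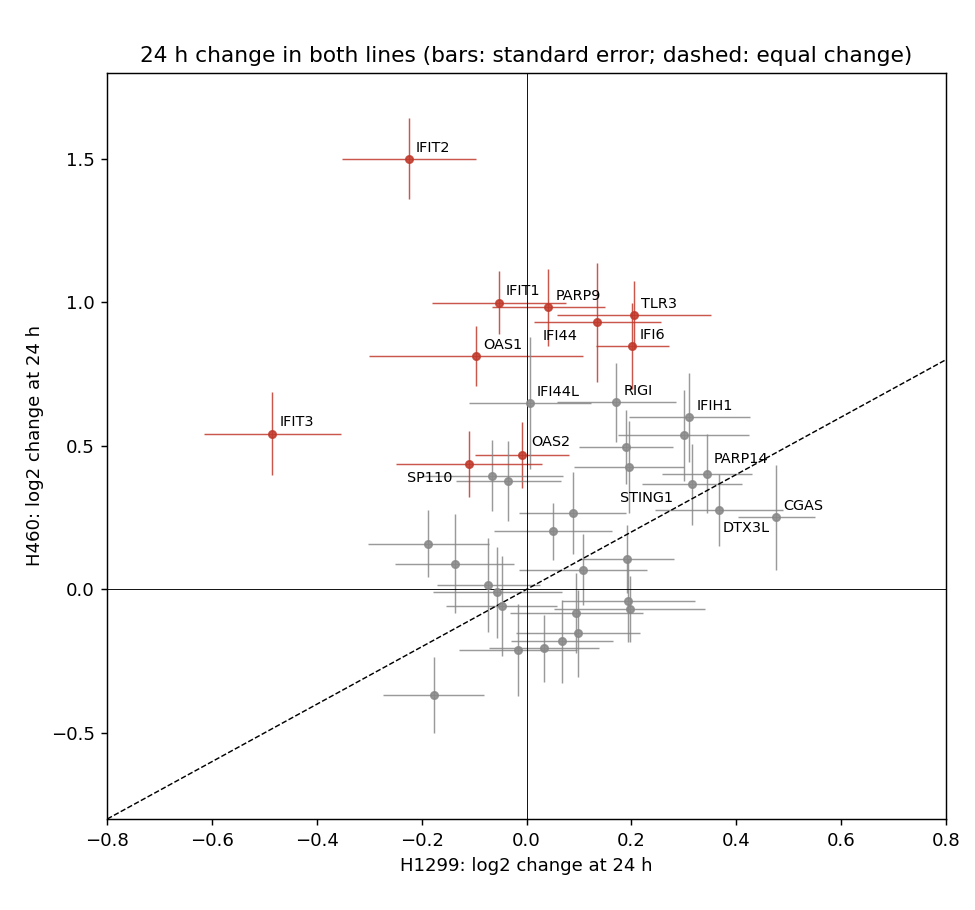
Log2 change at 24 h in H460 (vertical axis) against that in H1299 (horizontal axis) for the 39 genes, with standard errors as bars and equal change as the dashed line. Genes whose difference between the lines was called are red, the others grey. The 10 red genes lie above the dashed line, led by IFIT2 at 1.5 in H460 and -0.22 in H1299.

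Adding array width to the model left 7 of the 20 H460 calls at 24 h: IFIT2, IFIT1, PARP9, TLR3, IFI6, OAS1 and OAS2. IFIT2 then stood at 1.24, IFIT1 at 0.88 and OAS1 at 0.70. IFI44 stood at 0.29 in place of 0.93 and IFI44L at 0.0015 in place of 0.65, neither then called. The part of array width in these changes was not tested beyond these values. Shares of all genes called with width in the model are not given here. The median change of the 39 genes was 0.15 with width in the model. At 8 h 0 of 10 calls were left, and at 12 h 3 of 18 (OAS2, PARP9 and TLR3). After quantile normalization, which gives all arrays the same distribution, 17 of the 20 calls at 24 h were kept. Of the 10 differences between the lines at 24 h, 8 were kept with width in the model and the same number after quantile normalization, with IFI44 and SP110 lost in both.

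**Figure D5:**
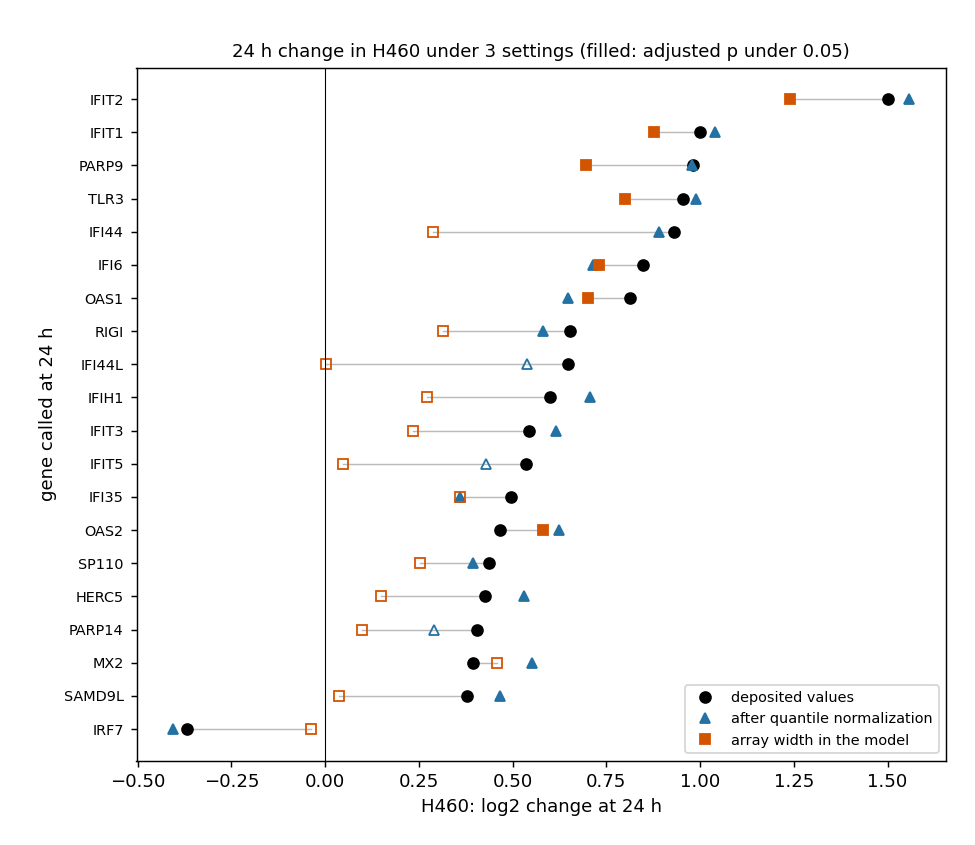
Log2 change at 24 h in H460 (horizontal axis) of the 20 genes called there, from the deposited values (black circles), after quantile normalization (blue triangles) and with array width in the model (orange squares). Filled symbols have an adjusted p under 0.05. The 7 genes with filled squares keep values of 0.58 or more, and 13 squares are open.

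Other genes of the pathway were read from lists. Of 16 interferon genes measured, 0 rose and 2 fell in H460 at 24 h (background 16.2% higher and 12.4% lower). The falls were of IFNL3 (0.51 ± 0.13) and IFNA6 (0.38 ± 0.12). In H1299 IFNE alone rose (0.38 ± 0.10, background 8.53% higher and 3.21% lower). The mean of these genes at 0 h was 3.415 in H460 and 3.32 in H1299. At such levels a signal cannot be told from background without detection calls. IFNB1, the type I interferon of non-immune cells, lay between 2.57 and 3.27 at 0 h in H460 and between 2.53 and 2.85 at 24 h. Of 15 receptors, kinases and feedback genes, 7 rose and 0 fell in H460 at 24 h (background 16.2% higher and 12.4% lower). They included SOCS3, an inhibitor of JAK kinases (1.28 ± 0.14), IFNGR1 (0.72 ± 0.18), IL10RB (0.65 ± 0.10) and IFNGR2 (0.65 ± 0.14), and the list median was 0.32. In H1299 1 rose at 24 h (IFNGR2, 0.21 ± 0.07), while JAK2 had risen by 1.06 ± 0.12 at 12 h.

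Of 25 adaptors, kinases and nucleases of nucleic acid sensing, 3 rose in H460 at 24 h, a smaller share than over all genes (16.2%): IFI16 (0.52 ± 0.16), SAMHD1 (0.30 ± 0.11) and TRIM25 (0.27 ± 0.09). The same list had 0 calls in H1299 at 24 h and 6 rises and 1 fall at 12 h (background 16.6% higher and 13.1% lower), with rises of ADAR (0.37 ± 0.10) and TRAF6 (0.37 ± 0.08) among the 6. Before irradiation IFI16, a nuclear DNA sensor, was higher in H460 by 4.45 ± 0.12, and MYD88 by 2.06 ± 0.11. Of 48 further interferon-stimulated genes, 17 rose and 0 fell in H460 at 24 h (background 16.2% higher and 12.4% lower), led by CD274 (PD-L1, 1.16 ± 0.15), TRANK1 (1.03 ± 0.15), SLFN5 (0.91 ± 0.14) and TRIM22 (0.83 ± 0.13). In H1299 8 rose and 1 fell (background 8.53% higher and 3.21% lower). SAMD9 (1.03 ± 0.14) led the rises, and NT5C3A fell by 1.11 ± 0.34. At 24 h CD274 (0.90 ± 0.20), TRANK1 (0.88 ± 0.22) and SOCS3 (1.06 ± 0.17) differed between the lines, all higher in H460.

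Markers of other cell types were read in the same arrays. Of 21 leukocyte markers, 1 rose and 2 fell in H460 at 24 h (CD14 0.59 ± 0.14, S100A9 -0.65 ± 0.15 and CD3G -0.38 ± 0.12), and the mean level of the list lay between 4.08 and 4.39 at 0 h and between 4.09 and 4.16 at 24 h. Of 10 fibroblast markers, 2 rose and 2 fell, LUM rising by 1.18 ± 0.19, with list means of 4.37 to 4.54 at 0 h and 4.43 to 4.53 at 24 h. In H1299 neither list had a call at 24 h. Among epithelial markers KRT8 and KRT18 were high in both lines at 0 h (means of 12.2 in H460 and of 10.8 and 12.1 in H1299). KRT19 was high in H460 (11.4) and low in H1299 (5.24), while EPCAM (3.97 and 3.67) and CDH1 (3.78 and 3.71) were low in both, as was the leukocyte marker PTPRC (2.68 and 2.66). Both lines are established cell lines, and why some of these markers changed was not tested, nor was the part of other cell types.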

How the data were processed

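The deposited table holds log2 intensities of one-colour Affymetrix arrays, normalized by the authors by a method not given in the sources used here. Labels state 100 ng of total RNA per array. Of 32321 rows, 19158 had 1 gene symbol, 1388 several and 11775 none in the annotation, and 754 gave way to a brighter row of the same gene, leaving 18404 genes. No dim genes were removed. limma 3.58.1 in R 4.3.3 (lmFit, eBayes with trend) fitted, two-sided, a quadratic course and contrasts against 0 h per line (21 arrays), the interaction of line and time (42 arrays) and the lines at 0 h (12 arrays). The fits were tested on simulated data. Precision is limited by 3 arrays per time. P-values measure the spread between arrays of a group. For the quadratic courses that spread also holds any departure of the time-point means from the curve.

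The genes and lists were chosen with earlier results of these data known. Every member may be named; up to 25 per comparison get full statistics, by largest change among called genes, and up to 4 genes per other list. IFNB1, PTPRC and the keratin, EPCAM and CDH1 levels were named beyond this rule after their values were seen. Same-numbered arrays did not deviate together (correlations from -0.370 to 0.197), and the main fits did not use the numbers as pairs. Alternatives were quantile normalization, median centring, array width as a covariate, a dim-gene filter, a replicate block, 1 mean per time point and each array left out. Leaving out the 4 narrowest arrays was added after seeing the data. The motif was searched on both strands.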

Additional observations from a re-analysis of the deposited data

Results flagged for a closer look

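Among the 0 h arrays, 9 of 78 sets of 6 values had 1 array far from the others, where chance gives about 1 in 20. In H460, replicate 1 was low for OAS1 (9.11, median 9.64), IFI6 (7.0, median 7.74) and IFI35 (7.46, median 7.81). Replicate 5 was low for IRF1 (5.46, median 5.82) and replicate 4 for USP18 (6.57, median 6.81). In H1299, replicate 2, the narrowest 0 h array of that line, was low for IRF9 (5.83, median 6.10), OAS3 (5.83, median 6.31) and DTX3L (6.21, median 6.78), and replicate 3 for RIGI (5.79, median 6.02).

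The change from 0 h differed between the lines (limma, H460 minus H1299) for 6 genes at 12 h. The differences were 0.81 for TLR3 (adjusted p = 0.00404), 0.66 for IFIT2 (adjusted p = 0.0229), 0.60 for OAS2 (adjusted p = 0.00303), 1.04 for SAMD9L (adjusted p = 5.85e-05), 0.78 for IFI44 (adjusted p = 0.049) and 0.64 for PARP9 (adjusted p = 0.0128). At 24 h it differed for 10 genes. The differences were 1.72 for IFIT2 (adjusted p = 1.26e-08), 1.05 for IFIT1 (adjusted p = 1.27e-05), 1.03 for IFIT3 (adjusted p = 0.000246), 0.94 for PARP9 (adjusted p = 0.000144) and 0.91 for OAS1 (adjusted p = 0.00774). They were 0.80 for IFI44 (adjusted p = 0.0339), 0.75 for TLR3 (adjusted p = 0.00538), 0.65 for IFI6 (adjusted p = 0.00857), 0.55 for SP110 (adjusted p = 0.0399) and 0.48 for OAS2 (adjusted p = 0.0144).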

How the results depend on the processing

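With array width in the model, 11 of the 39 genes were called for the H460 course; at 2, 4, 8, 12 and 24 h the counts were 0, 2, 0, 3 and 7. In H1299 9 were called for the course, and 10, 5 and 8 at 2, 8 and 12 h. At 2 h in H460 the signs of RIGI (0.14), HERC6 (0.034), IFI44 (0.38) and IFI44L (0.27) were then reversed, none called. With 1 mean per time point the course was called for 32 genes in H460 and the difference of courses for 24. Quantile normalization and median centring each gave 2 genes at 4 h in H460 and 3 at 24 h in H1299, and quantile normalization gave 5 at 2 h in H1299. Leaving out the 4 narrow arrays, chosen after seeing the data, gave 2 at 4 h in H460 and 5 at 2 h in H1299, and leaving out the dimmest genes gave 2 at 4 h in H460. A replicate block gave 0 at 4 h in H460, 3 at 4 h in H1299 and 16 at 24 h in H460. The cause was not tested. The backgrounds given above belong to the main model, and shares of all genes called under these settings are not given. Leaving out 1 array at a time gave 19 to 23 for the H460 course, 12 to 22 at 2 h, 0 to 2 at 4 h, 4 to 14 at 8 h, 14 to 20 at 12 h, and 12 to 21 for 24 h. H1299 had 11 to 17 for the course, 1 to 5 at 2 h, 2 to 7 at 4 h, 5 to 9 at 8 h, 7 to 15 at 12 h and 1 to 6 at 24 h. It gave 12 to 14 for the difference of courses, 3 to 9 at 12 h, 7 to 12 at 24 h and 27 to 30 between the lines at 0 h. The other counts stayed within 1.5 times the reported one. No gene had another row, so that alternative could not be run. Without detection calls, low signal limits the 10 dim genes.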
